A study of Mus musculus with 6 samples.

Results

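The genes described here encode dynein arm assembly factors, proteins that fold and join the subunits of axonemal dynein in the cytoplasm before the finished arms are carried into a cilium. The group was defined by name and comprised Dnaaf1, Dnaaf2, Dnaaf3, Dnaaf5, Lrrc6, Zmynd10, Ccdc103, Spag1, Ruvbl1 and Ruvbl2. All 10 symbols were present among the 22851 genes of the count table, and all 10 passed the filter on low counts that kept 14243 genes for testing. RNA had been sequenced from multiciliated ependymal cells, which were grown from radial glial cells of newborn (P0-P3) C57BL/6J mouse brains and induced to differentiate by 6 days without serum. The 3 WT libraries came from wild-type mice and the 3 Edf1 KO libraries from mice in which Edf1 had been disrupted with CRISPR/Cas9. Both groups received the same medium and induction, and no further allele or agent is named. The series calls the 3 libraries of a genotype biological replicates, but does not say whether each came from its own animal or from pooled pups, or which part of Edf1 was removed. The comparison asked which of these genes depend on Edf1 while ependymal cells form.

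Motile cilia beat because outer and inner dynein arms slide the axoneme's microtubules against each other. Dynein heavy chains are very large and are built with the help of HSP90 and HSP70 chaperones, the R2TP complex that holds the ATPases RUVBL1 and RUVBL2, and a set of cilia-specific co-chaperones. Loss of a cilia-specific factor leaves cilia in place but with missing arms, the defect of many patients with primary ciliary dyskinesia. Ependymal cells carry tufts of such cilia, which move cerebrospinal fluid over the ventricle wall.

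Sequence around the start site was available in the RefSeq promoter table (GRCm38.p6) for 7 of the 10 genes. It is shown for all 7, since these genes moved in one direction, from 100 bases before the start site to 50 bases after it, 5′ to 3′ on the gene's own strand. Capitals mark the core hexamer of the X-box, the element bound by RFX transcription factors of cilia genes, searched as GTTGCC on both strands.
Dnaaf2, chr12:69198380-69198529, minus strand: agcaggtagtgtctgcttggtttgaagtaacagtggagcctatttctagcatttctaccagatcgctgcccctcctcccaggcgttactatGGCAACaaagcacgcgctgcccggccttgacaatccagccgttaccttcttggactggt
Dnaaf5, chr5:139150135-139150284, plus strand: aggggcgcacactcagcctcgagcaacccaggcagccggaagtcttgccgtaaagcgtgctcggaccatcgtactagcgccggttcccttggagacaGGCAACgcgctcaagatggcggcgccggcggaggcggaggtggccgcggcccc
Zmynd10, chr9:107547204-107547353, plus strand: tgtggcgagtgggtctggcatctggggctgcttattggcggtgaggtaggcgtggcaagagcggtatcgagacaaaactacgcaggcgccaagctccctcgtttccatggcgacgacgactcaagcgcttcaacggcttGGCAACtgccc
Ccdc103, chr11:102881124-102881273, plus strand: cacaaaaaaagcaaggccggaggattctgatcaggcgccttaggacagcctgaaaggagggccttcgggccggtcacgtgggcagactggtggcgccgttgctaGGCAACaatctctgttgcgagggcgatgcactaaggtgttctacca
Dnaaf3, chr7:4532416-4532565, minus strand: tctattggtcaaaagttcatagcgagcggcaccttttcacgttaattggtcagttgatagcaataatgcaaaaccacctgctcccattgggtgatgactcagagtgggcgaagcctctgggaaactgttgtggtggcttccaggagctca
Ruvbl1, chr6:88465309-88465458, plus strand: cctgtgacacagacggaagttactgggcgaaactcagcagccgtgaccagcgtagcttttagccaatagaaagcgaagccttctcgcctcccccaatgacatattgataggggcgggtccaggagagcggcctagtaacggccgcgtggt
Ruvbl2, chr7:45434415-45434564, minus strand: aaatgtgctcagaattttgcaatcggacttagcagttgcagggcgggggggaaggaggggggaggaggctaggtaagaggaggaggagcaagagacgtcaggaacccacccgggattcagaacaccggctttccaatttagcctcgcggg

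The hexamer occurred once in each of 4 of the 7 windows of 300 bases (57.1%), against 4111 of all 32851 windows of that length in the table (12.5%). All 4 matches lay on the strand opposite to the gene and close to the start site, beginning at position -9 in Dnaaf2, -3 in Dnaaf5, 4 in Ccdc103 and 39 in Zmynd10, counted from 0 at the first base of the transcript. A strict form of the whole X-box occurred in 0.152% of all windows and had no match in the 7 windows. Whole X-boxes that differ from that form in letters or spacing were not searched. The lack of a match therefore does not show that the 7 windows hold no such site. The forkhead core TGTTTAC occurred in 3.65% of all windows and also had no match in the 7 windows. The Ruvbl2 window surrounds the RefSeq start site, which lies inside the GENCODE gene, downstream of that gene's 5′ end. These are matches of letters and were not tested as binding sites.

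The libraries held 13071766 to 28087006 counts, and WT replicate 2 had the fewest. Edf1 had 82.6, 85.9 and 80.2 CPM (counts scaled to library size, with TMM factors) in WT replicates 1 to 3 and 9.84, 10.9 and 13.2 CPM in the knockout, so every library matched its label. Over all tested genes, 14.2% were called lower and 12.7% higher. Markers of ependymal cells were present and lower in the knockout: 9 of 10 listed genes were called lower, and their summed level was 2102 to 2299 CPM in WT and 1283 to 1351 CPM in the knockout. Microglia markers were also lower (10 of 12, summed 2110 to 2267 CPM against 1416 to 1459 CPM), and fibroblast and mural markers were higher (9 of 10 tested, summed 863 to 922 CPM against 1069 to 1186 CPM). Of 12 radial glia and astrocyte markers, 2 were called lower and 3 higher, with sums of 11331 to 11883 CPM and 12117 to 12570 CPM. Neuronal markers (2 of 7 tested called lower) and choroid plexus markers (1 of 4 called higher) had sums that overlapped between genotypes, at 254 to 330 CPM against 274 to 290 CPM and 97.04 to 125 CPM against 113 to 135 CPM. Oligodendrocyte markers (1 of 7 called lower) summed to 444 to 483 CPM and 411 to 430 CPM. Of 6 endothelial markers, Kdr was called higher and Flt1 lower, the other 4 had too few counts to test, and Cldn5 had at most 1 count in any library. The part of these shifts in the results below was not tested. In bulk RNA, fewer ependymal cells and less RNA per cell cannot be told apart.

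All 10 assembly factor genes fell in the knockout. Each was called lower in edgeR's quasi-likelihood test at an adjusted p-value under 0.05, where 14.2% of all tested genes were called lower. Every knockout library lay below every WT library for all 10, which was so for 22.1% of tested genes. The median log2 fold change of the 10 was -0.62, against 0.0029 over all tested genes, and single genes ranged from -1.26 for Dnaaf1 to -0.39 for Ruvbl1. Summed over the 10 genes, the level was 774 to 891 CPM in WT and 502 to 522 CPM in the knockout. No gene lost its call in any of 14 alternative fits, in which the adjusted p-values of the 10 were at most 0.00587.

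**Figure D1:**
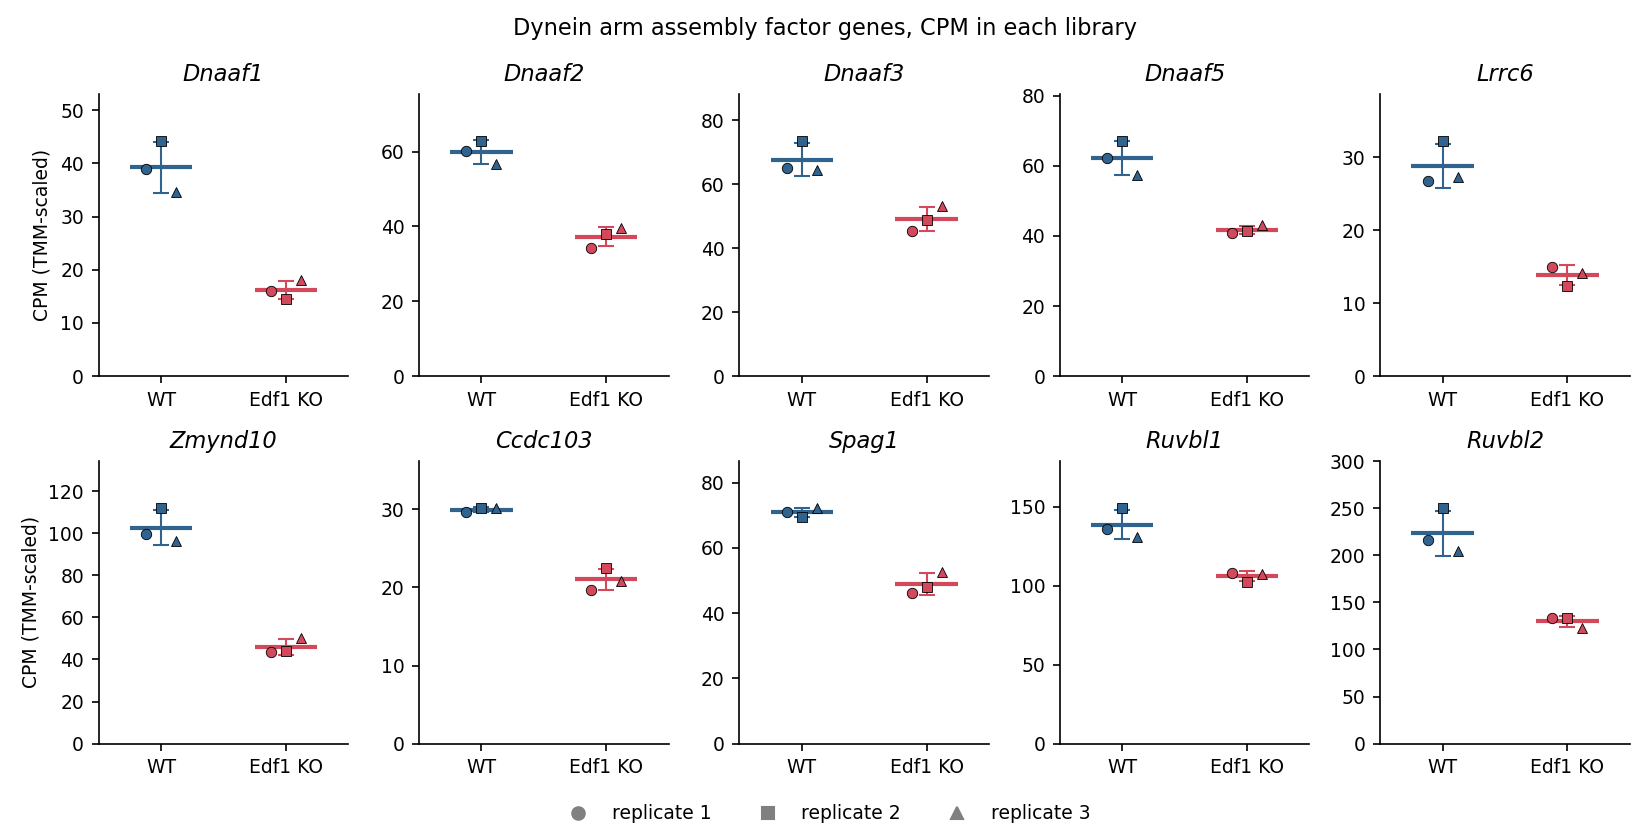
CPM (TMM-scaled, y axis from 0) of the 10 dynein arm assembly factor genes in each WT and Edf1 KO library; symbols are replicates, thick lines group means and error bars SD (n = 3). In all 10 panels the knockout libraries lie below the WT libraries, and WT replicate 2 is the highest WT library in most panels.

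Dnaaf1 and Lrrc6 encode leucine-rich repeat proteins needed for outer and inner arms. Dnaaf1 (chr8:119575235-119598454, 12 exons) had 38.9, 44.3 and 34.5 CPM in WT replicates 1 to 3 and 15.98, 14.5 and 18.1 CPM in the knockout. It was the gene with the largest fall, 58.7% below WT, with an edgeR log2 change of -1.26 with SE 0.11 and an adjusted p-value of 3.47e-06. Lrrc6 (chr15:66379858-66500910, 12 exons), whose product binds that of Zmynd10, had 26.8, 32.2 and 27.3 CPM in WT libraries against 15.001, 12.4 and 14.1 CPM in Edf1 KO libraries. The WT libraries lay well apart from the knockout libraries, and the edgeR log2 change was -1.05 with SE 0.10 and an adjusted p-value of 9.96e-06.

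Zmynd10 encodes a zinc finger protein that works with HSP90 and the immunophilin FKBP8 on dynein heavy chains. The gene (chr9:107547298-107551319, 12 exons) had 99.4, 112 and 96.5 CPM in WT libraries against 43.5, 43.96 and 50.4 CPM in Edf1 KO libraries. Its fall of 55.2% had the smallest standard error of the 3 largest falls, with an edgeR log2 change of -1.15 with SE 0.076 and an adjusted p-value of 7.07e-07.

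Dnaaf2, known as kintoun, encodes a PIH-domain co-chaperone that bridges dynein chains and HSP70. The gene (chr12:69189087-69198429, 3 exons) had 60.1, 62.9 and 56.7 CPM in WT libraries against 34.4, 37.996 and 39.5 CPM in Edf1 KO libraries. The edgeR log2 change was -0.68 with SE 0.069 and an adjusted p-value of 1.75e-05. Dnaaf5 (chr5:139150223-139186510, 13 exons) encodes a HEAT-repeat protein that acts in the same cytoplasmic steps. It had 62.2, 67.2 and 57.4 CPM in WT libraries against 40.8, 41.3 and 43.1 CPM in Edf1 KO libraries. edgeR put that change at -0.57 on the log2 scale (SE 0.068; adjusted p-value 5.50e-05). Their mean levels were 37.7% and 33.0% below WT, and neither gene had a knockout library that reached the lowest WT library.

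Dnaaf3 encodes a factor that acts late in preassembly. The gene (chr7:4522933-4532453, 12 exons) had 65.1, 73.7 and 64.4 CPM in WT libraries against 45.4, 48.97 and 53.1 CPM in Edf1 KO libraries. edgeR put that change at -0.45 on the log2 scale (SE 0.074; adjusted p-value 0.000636). Ccdc103 encodes a coiled-coil protein that helps anchor the arms and is found in cytoplasm and axoneme. It lies at chr11:102881204-102885216 with 5 exons in its longest transcript, and was the least variable of the 10 in WT. It had 29.6, 30.1 and 30.2 CPM in WT libraries against 19.7, 22.5 and 20.9 CPM in Edf1 KO libraries. edgeR put that change at -0.51 on the log2 scale (SE 0.076; adjusted p-value 0.000333). Spag1 encodes a scaffold with tetratricopeptide repeats that can take the place of RPAP3 in an R2TP-like complex. The gene (chr15:36178099-36235621) had 71.1, 69.3 and 72.2 CPM in WT libraries against 46.2, 48.1 and 52.6 CPM in Edf1 KO libraries. edgeR put that change at -0.53 on the log2 scale (SE 0.062; adjusted p-value 5.29e-05). The falls of these 3 genes were close in size, between 27.45% and 30.9%.

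Ruvbl1 and Ruvbl2 differ from the other 8 genes in that all cells use them. Their products form a joint ring of ATPases that serves the R2TP co-chaperone complex and also the INO80, SRCAP and TIP60 chromatin complexes. Ruvbl1 (chr6:88465409-88497572, 11 exons) had 136, 149 and 131 CPM in WT libraries against 108, 102 and 108 CPM in Edf1 KO libraries. edgeR put that change at -0.39 on the log2 scale (SE 0.060; adjusted p-value 0.000436). Ruvbl2 (chr7:45421760-45438096, 18 exons) had 216, 250.02 and 204 CPM in WT libraries against 133, 133 and 123 CPM in Edf1 KO libraries. edgeR put that change at -0.78 on the log2 scale (SE 0.071; adjusted p-value 6.54e-06). Their 95% confidence intervals, -0.52 to -0.26 for Ruvbl1 and -0.94 to -0.63 for Ruvbl2, did not overlap. There were 1.59, 1.68 and 1.56 Ruvbl2 counts for each Ruvbl1 count in WT replicates 1 to 3, and 1.23, 1.30 and 1.15 in the knockout. The log2 ratio of Ruvbl1 to Ruvbl2 was -0.68 ± 0.055 in WT and -0.29 ± 0.092 in the knockout (SD, n = 3), a difference of 0.39 with no overlap between groups. The two-sided exact permutation p-value was 0.1, the smallest that 3 against 3 libraries can give. This ratio does not depend on library scaling.

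**Figure D2:**
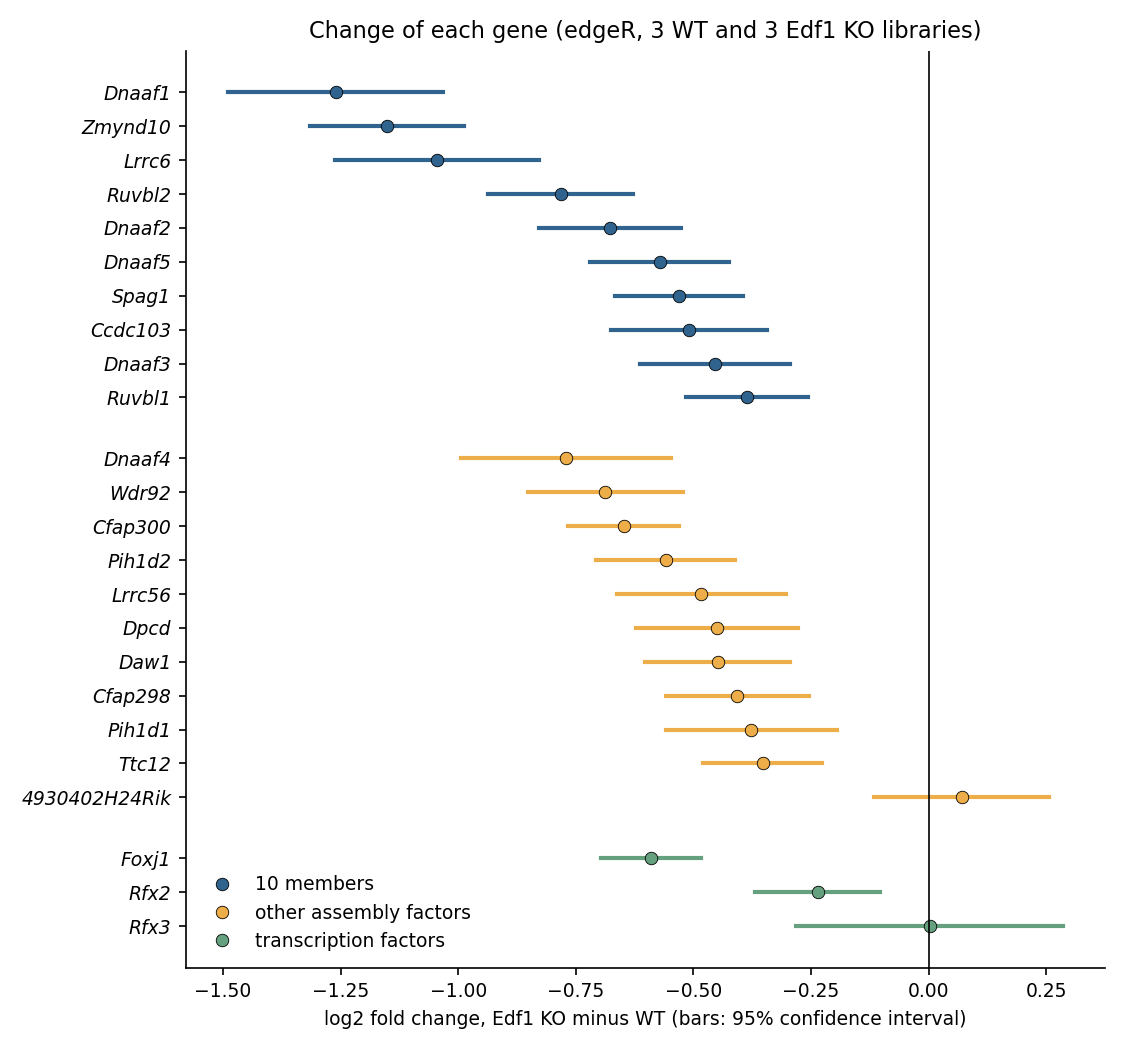
Log2 fold change (x axis, Edf1 KO minus WT, edgeR) with its 95% confidence interval for the 10 dynein arm assembly factor genes, 11 other assembly factor genes and 3 transcription factor genes, sorted within each set. The 10 intervals of the first set all lie below 0; those of 4930402H24Rik and Rfx3 include 0.

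The falls differed in size among the 10 genes. The 95% confidence intervals of Dnaaf1 (-1.49 to -1.03) and Zmynd10 (-1.32 to -0.99) lay wholly below those of the other genes except Lrrc6 (-1.26 to -0.83). In the order from Dnaaf1 through Zmynd10, Lrrc6, Ruvbl2, Dnaaf2, Dnaaf5, Spag1, Ccdc103 and Dnaaf3 to Ruvbl1, 7 of the 9 pairs of neighbours had within-library ratios that overlapped between genotypes. The exceptions were the step from Lrrc6 to Ruvbl2, a difference of -0.27 in log2 fold change (SE 0.10), and that from Dnaaf2 to Dnaaf5, a difference of -0.11 (SE 0.048). The genes were sorted by these same changes, so the sign of each difference follows from the order. With 3 libraries a group, an exact permutation test of such a ratio cannot give a p-value below 0.1. Per kilobase of the longest annotated transcript, Ruvbl2 and Ruvbl1 had the highest levels in WT, 96.6 ± 10.3 and 82.8 ± 5.59 CPM per kilobase (SD, n = 3). Ruvbl2 was above Ruvbl1 within each WT library, but the ranges of the 2 genes overlapped. Zmynd10 followed at 58.1 ± 4.63 and Dnaaf3 at 30.5 ± 2.31 CPM per kilobase. The other 6 genes lay between 13.8 CPM per kilobase for Lrrc6 and 18.04 for Dnaaf5, and Spag1, at 14.7, would have had 19.4 with its longest coding transcript in place of a longer single-exon one. In the knockout Ruvbl1 stood at 63.3 ± 1.92 and Ruvbl2 at 56.2 ± 2.48 CPM per kilobase, and Ruvbl1 was the higher in each library by this measure. That order rests on the annotated lengths, 1675 bases for Ruvbl1 and 2312 bases for Ruvbl2. Before division by length, Ruvbl2 had more counts than Ruvbl1 in every knockout library.

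Some of these counts may hold reads of neighbours, because it is not given in the sources used here whether strand was used or how reads matching several genes were counted. In GENCODE M21, 20.7% of the exon bases of Dnaaf1 overlap Taf1c on the opposite strand, and 71.1% of the 31-base words in Dnaaf2 transcripts also occur in the overlapping models 9330151L19Rik, Gm49383 and Gm49384. For Ruvbl1 57% of such words occur in the processed copies Gm5837 or Gm7499, and 15.4% of the exon bases of Ruvbl2 overlap Gys1 or Lhb on the opposite strand. Lrrc6 shared no such word. Taf1c itself had 203 to 348 counts in WT and an edgeR log2 change of -0.18 with an adjusted p-value of 0.279. Lhb, with 208 to 371 counts in WT beside 3218 to 5735 for Ruvbl2, fell by 1.37 on the log2 scale (adjusted p-value 4.30e-06 by edgeR). The part of these overlaps in the falls was not tested.

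Other factors of the same assembly route fell as well. Of 13 further genes on a list of dynein preassembly factors, 11 were tested and 10 were called lower, with a median of -0.45, beside the 14.2% called lower among all tested genes. Dnaaf4, which encodes a co-chaperone with a tetratricopeptide domain, fell most, from 41.02 ± 5.02 to 23.8 ± 2.75 CPM (SD, n = 3), a log2 fold change of -0.77 (SE 0.10). Wdr92, which links R2TP to dynein assembly, fell by 0.69 and Cfap300 by 0.65 on the log2 scale. Pih1d2 followed at -0.56, Lrrc56 at -0.48, Dpcd and Daw1 at -0.45 each, Cfap298 at -0.41, Pih1d1 at -0.38 and Ttc12 at -0.35. The adjusted p-values of these 10 genes by edgeR were at most 0.00539. 4930402H24Rik, taken here as Dnaaf9 from general knowledge and not from a reference table, had 151.6, 116 and 147 CPM in WT libraries against 154, 139 and 145 CPM in Edf1 KO libraries. Its groups overlapped and its log2 fold change was 0.070 (95% confidence interval -0.12 to 0.26, adjusted p-value 0.591 by edgeR). Without WT replicate 2 this value was -0.038. The symbol Dnaaf6 had 0 counts in each of the 6 libraries. The related symbol Dnaaf6b, named after its values were seen, had 328, 130 and 182 counts in WT and 67, 100 and 122 across the Edf1 KO libraries. edgeR put that change at -1.22 on the log2 scale (SE 0.15; adjusted p-value 7.48e-05). Dnaaf8 was not analysed here.

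Of the 13 genes of R2TP and of the larger PAQosome around it, which overlap the previous list in Wdr92 and Pih1d1, 5 were called lower and 2 higher, with a median of -0.16, where 14.2% of all tested genes were called lower and 12.7% higher. The core gene Rpap3 had an edgeR log2 change of -0.30 with an adjusted p-value of 0.00222. The prefoldin-like genes Pdrg1 (0.25, adjusted p-value 0.00816 by edgeR) and Uri1 (0.28, adjusted p-value 0.0438 by edgeR) were the 2 called higher. The call of Pdrg1 was lost without knockout replicate 2, at 0.0512. That of Uri1 was lost without WT replicate 2 (0.054), knockout replicate 1 (0.0619), 2 (0.159) or 3 (0.106), all adjusted p-values by edgeR. Of 17 chaperone genes, 10 were called lower and 1 higher, with a median of -0.16, against the same 14.2% lower and 12.7% higher over all tested genes, and 6 were called lower when any 1 knockout library was left out. The 2 cytosolic HSP90 genes parted: Hsp90aa1, the inducible form, fell from 3125 ± 33.7 to 2100.3 ± 108 CPM (SD, n = 3), an edgeR log2 change of -0.57 with SE 0.047 and an adjusted p-value of 3.13e-06. Hsp90ab1, the constitutive form, had 1971 ± 42.3 and 1951 ± 59.6 CPM, a log2 fold change of -0.015 with a 95% confidence interval of -0.11 to 0.080, and its sign turned without WT replicate 2 (0.0027) or knockout replicate 1 (0.0068). Their log2 ratio was 0.66 ± 0.015 in WT and 0.11 ± 0.10 in the knockout (SD, n = 3, two-sided exact permutation p-value 0.1, the smallest possible). The HSP90 activator gene Ahsa1 fell by 0.54 on the log2 scale, and the co-chaperone gene Ptges3 rose by 0.27 (adjusted p-values 3.26e-05 and 0.00241 by edgeR).

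Genes of the chromatin complexes that share Ruvbl1 and Ruvbl2 had a median near that of all genes. Of 21 listed members of INO80, SRCAP and TIP60, 5 were called lower, where 14.2% of all tested genes were, and the median was -0.041. The lowest were Znhit1, a subunit of SRCAP, at -0.48 (adjusted p-value 0.00126 by edgeR), and Mcrs1, a subunit of INO80, at -0.33 (adjusted p-value 0.00172 by edgeR). The count was 3 of 21 when WT replicate 1 or knockout replicate 1 or 2 was left out. Of 7 genes of box C/D small nucleolar RNPs and their assembly, another client of R2TP, Znhit6 alone was called, with a value of 0.31 (adjusted p-value 0.0108 by edgeR), where 12.7% of all tested genes were called higher. That call was lost when WT replicate 1 (0.0531) or knockout replicate 1 (0.0519) or 3 (0.0598) was left out, all adjusted p-values by edgeR.

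**Figure D3:**
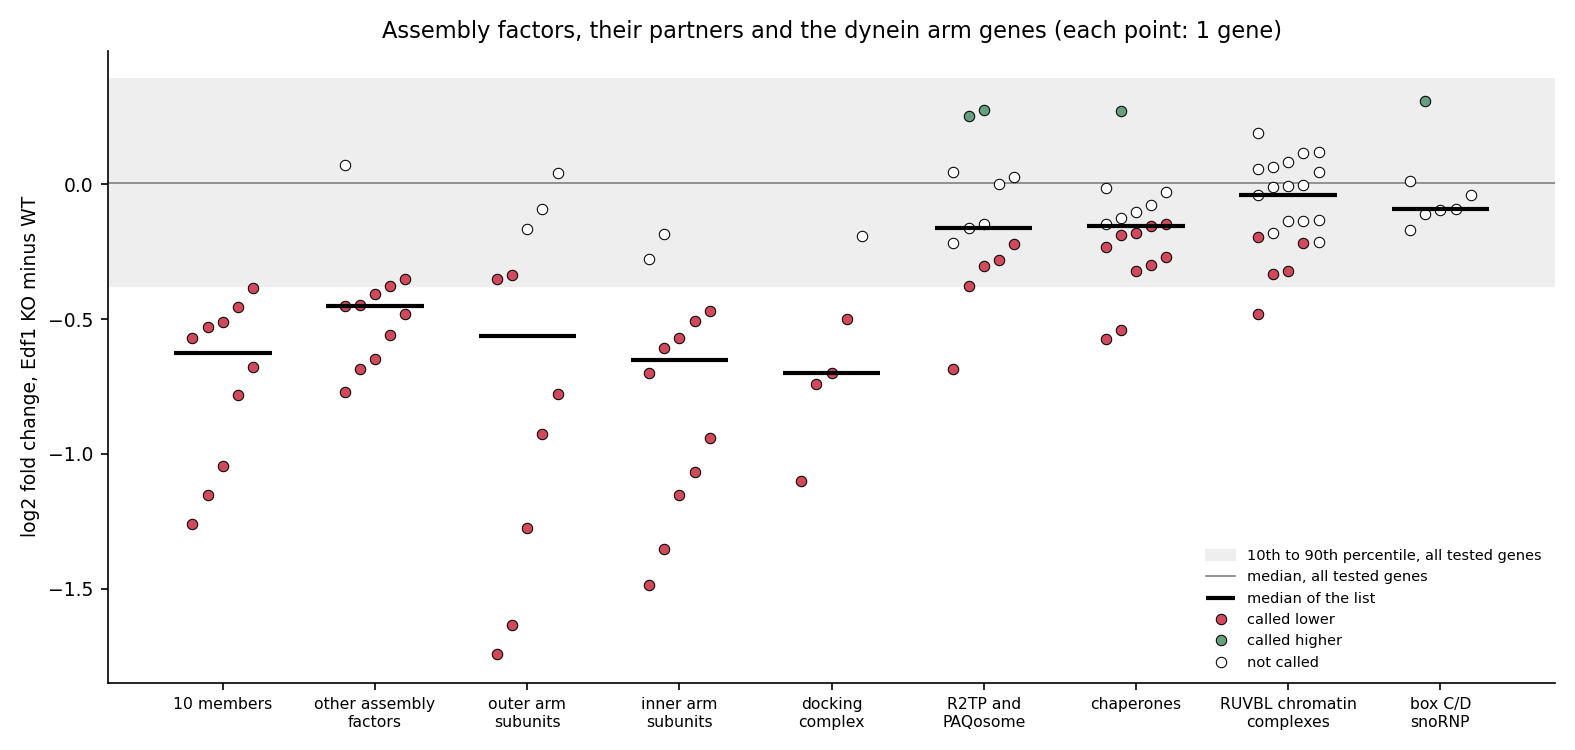
Log2 fold change (y axis, Edf1 KO minus WT) of each tested gene, as 1 point, in the 10 dynein arm assembly factor genes and 8 related lists, with list medians as black bars and the 10th to 90th percentile of all tested genes (-0.38 to 0.39) shaded. The medians of the assembly factor, arm subunit and docking lists lie below the shaded band, and those of the R2TP, chaperone, chromatin and small nucleolar RNP lists lie inside it.

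The clients of the assembly factors, the subunits of the dynein arms, were lower over a wider range. Of 11 outer arm genes, 10 were tested and 7 were called lower, with a median of -0.56, where 14.2% of all tested genes were called lower. This list overlaps the ependymal markers in Dynlrb2, which was called lower at -0.93, and holds Dnah17, which was low at 5.55 CPM in WT. The heavy chain gene Dnah11 had the largest fall, from 117 ± 7.49 to 34.97 ± 2.52 CPM (SD, n = 3), a log2 fold change of -1.74 (SE 0.071). Dnah8, a low heavy chain gene with 43 to 88 counts in WT, fell by 1.64 on the log2 scale. The light chain gene Dnal4 (-0.094, 95% confidence interval -0.25 to 0.062) and the heavy chain gene Dnah17 (0.040, 95% confidence interval -0.28 to 0.36) did not pass the threshold. Dnah17 turned sign without WT replicate 3 (-0.0065) or knockout replicate 2 (-0.043). Of 12 inner arm genes, 10 were called lower, with a median of -0.65, beside the same 14.2%. Dnah10 (-1.49) and Dnah3 (-1.35) had the lowest values, and Dnah7a (-0.28) and Dnah7b (-0.18), which are near-identical copies, did not pass. Their other copy Dnah7c, named after its values were seen, was called lower, at -0.51 (adjusted p-value 0.0192 by edgeR), a call lost when WT replicate 3 (0.0602) or knockout replicate 1 (0.0847) or 2 (0.0877) was left out. Dnah7a was called without WT replicate 1, at -0.35 (adjusted p-value 0.0428 by edgeR), and Dnah7b without WT replicate 2, at -0.29 (adjusted p-value 8.22e-05 by edgeR). Of 5 genes of the outer arm docking complex, 4 were called lower, again beside 14.2% over all tested genes. Armc4 had the lowest value (-1.10), and Ccdc114 the highest (-0.19, adjusted p-value 0.0588 by edgeR, or -0.24 and 0.0313 without WT replicate 3). The range of the 10 assembly factor genes, from -1.26 to -0.39, lay inside that of either arm's subunits.

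Foxj1, the transcription factor that switches on motile cilia genes, served as a measure within each library. It had 767, 838 and 759 CPM in WT libraries against 517, 517 and 535 CPM in Edf1 KO libraries. edgeR put that change at -0.59 on the log2 scale, with SE 0.049 and an adjusted p-value of 3.41e-06. Foxj1 is among the 10 listed ependymal markers, whose log2 fold changes ranged from -1.45 to 0.014, with a median of -0.87. Ratios to another marker were not computed and could differ in size and sign, so the differences below hold for Foxj1 alone. The ratio to Foxj1 was lower in every knockout library than in every WT library for 5 of the 10 assembly factor genes. The share of all tested genes for which this held was not computed. For Dnaaf2 the gap was narrow, with a log2 ratio of -3.740 in the lowest WT library and -3.755 in the highest knockout library. The log2 ratio differed between knockout and WT by -0.68 for Dnaaf1, -0.57 for Zmynd10, -0.46 for Lrrc6, -0.19 for Ruvbl2 and -0.094 for Dnaaf2. It differed by 0.20 for Ruvbl1, again without overlap, and the groups overlapped for Dnaaf3 (0.13), Ccdc103 (0.078), Spag1 (0.054) and Dnaaf5 (0.016). Each of the 6 ratios without overlap had a two-sided exact permutation p-value of 0.1, the smallest possible with 3 libraries a group, and 0.167 after adjustment over the 10 ratios. Of the RFX factors, Rfx2 had an edgeR log2 change of -0.24 with SE 0.061 and an adjusted p-value of 0.0128, a call lost without knockout replicate 2 (0.0557) or 3 (0.0703). Rfx3 had 0.0020 (95% confidence interval -0.28 to 0.29) and its value turned negative when WT replicate 2 (-0.14) or knockout replicate 1 (-0.0048) or 3 (-0.070) was left out.

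**Figure D4:**
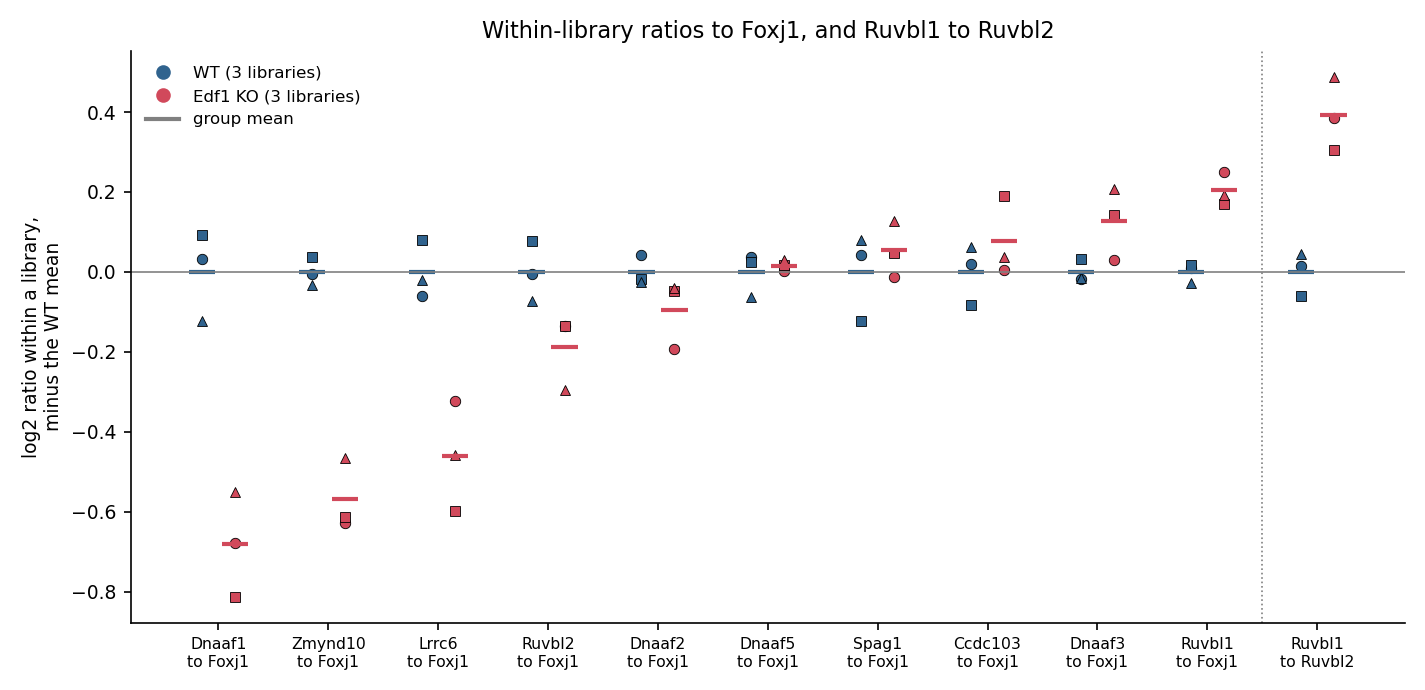
Log2 ratio within each library (y axis, minus the WT mean of that ratio) of each assembly factor gene to Foxj1 and of Ruvbl1 to Ruvbl2, in 3 WT and 3 Edf1 KO libraries, with group means as bars and replicates by symbol as in the CPM plot. Dnaaf1, Zmynd10 and Lrrc6 lie below the WT libraries, Dnaaf5 overlaps with them, and the Ruvbl1 to Ruvbl2 ratio lies above them.

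Among themselves, Dnaaf1 and Zmynd10 had the most similar profiles of the 3 strongly lowered genes. Their log2 CPM, centred on each gene's mean over the 6 libraries, differed by a root mean square of 0.085, against 0.45 between Dnaaf1 and Ruvbl1. Ccdc103 and Spag1 formed the closest pair of all at 0.071, and Dnaaf2 and Dnaaf5 followed at 0.073. Of 12888 genes searched over the 6 libraries, Shisa8 (0.033), Dmkn (0.048) and Arhgdig (0.056) lay nearest to Dnaaf1 by this measure, which includes the difference between genotypes. Shisa8 had 60.3 ± 8.07 CPM in WT libraries against 25.8 ± 2.24 CPM in Edf1 KO libraries (SD, n = 3). As with Dnaaf1, the level of all 3 genes in WT was highest in replicate 2, a likeness that the search by profile itself favours.

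WT replicate 2 had the highest WT level of 8 of the 10 assembly factor genes by the CPM values above. For Ccdc103 replicate 3 was marginally higher, and for Spag1 replicate 2 was lowest. How many of all tested genes were also highest in WT replicate 2 was not computed, so this is not shown to be a trait of the 10 genes. WT replicate 2 was also the library with the fewest counts. Without that library, the 10 log2 fold changes ranged from -1.17 for Dnaaf1 to -0.33 for Ruvbl1, and all 10 were called lower. The 4 genes with the hexamer in their window had log2 fold changes from -1.15 to -0.51 and the 3 without one from -0.78 to -0.39, ranges that overlap.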

How the data were processed

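RNA from 3 WT and 3 Edf1 KO samples was sequenced from MGIEasy mRNA libraries, per the labels' protocols. Values are deposited as unnormalised counts (whole numbers) in 1 table of 22851 genes, with 0 rows that name no gene and 0 columns left unused. FastQC 0.11.2, cutadapt 1.11, HISAT2 2.1.0 and GRCm38 are named in the submitters' processing notes; the counting program, annotation and strandedness are not given in the sources used here. In R 4.3.3, filterByExpr of edgeR 4.0.16 kept 14243 genes, TMM factors were 0.985 to 1.01, and edgeR's quasi-likelihood test compared Edf1 KO with WT on all 6 libraries, p-values being adjusted by Benjamini-Hochberg across the 14243 genes and called under 0.05. Each standard error was derived from the F statistic. Log2 CPM used a prior count of 2. The fits were tested on simulated counts. Alternatives were DESeq2 1.42.0 and its size factors, limma 3.58.1 (voom), library size alone, other count filters, the replicate block, each library left out and a threshold of 0.01. Lengths and overlaps come from GENCODE M21 and promoters from RefSeq, both GRCm38.

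The members and lists were chosen with earlier results of these data known, so counts within lists stand beside the share of all genes and the lists carry no test. Named are the 10 genes, Edf1, Foxj1, Rfx2, Rfx3, the other assembly factors, up to 4 genes at the ends of each further list, and the 3 genes nearest to Dnaaf1; Rpap3, Dnah7c, Dnaaf6b, Kdr, Flt1, Cldn5 and overlapping genes were added after their values were seen. With 3 libraries a group, p-values set the difference between genotypes against the spread between these libraries. Whether that spread includes variation between animals is not given in the sources used here.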

Additional observations from a re-analysis of the deposited data

How the results depend on the processing

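All 10 assembly factor genes, and the 10 other assembly factor genes called lower, were called lower under each of the 14 alternatives. Outer arm genes called lower numbered 6 to 8 and inner arm genes 9 to 11. The difference in the Ruvbl1 to Ruvbl2 log2 ratio stayed between 0.34 and 0.44. With the replicate block 10 assembly factor genes were called lower. In that fit Uri1 lost its call among the named genes, while Dnah7b, Nop58 and Vps72 gained a call. R2TP and PAQosome genes called higher fell to 1 with the block, but stayed at 2 under limma voom. Box C/D genes called lower rose to 1 in both fits. Same-numbered libraries deviated together with correlations of only 0.0372 to 0.0693, although each WT library correlated best with its own number. Whether equal numbers mark a shared origin is not given in the sources used here. The main fit assumed no pairing.

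A threshold of 0.01 left 1248 of 2029 genes called lower over all genes, 6 chaperone genes, 3 RUVBL chromatin complex genes lower and 1 R2TP and PAQosome gene higher. Leaving out single libraries gave 6 to 10 chaperone genes lower, 3 to 6 chromatin complex genes lower, 0 to 2 R2TP and PAQosome genes higher and 0 to 1 box C/D gene lower. Directions that turned in these fits were those of 4930402H24Rik (-0.038 to 0.14), Dnah17 (-0.043 to 0.11), Hsp90ab1 (-0.037 to 0.0068) and Rfx3 (-0.14 to 0.15), none of them called. The cause was not tested. Of the outer arm genes, Nme8 had too few counts to test, and Dnah8 was left out by the filter at a mean of 50 counts.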

Other observations

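Of 15 listed cell cycle genes, 8 were called higher and 3 lower in the knockout by edgeR, where 12.7% of all tested genes were called higher and 14.2% lower. The median log2 fold change was 0.30. Summed over the list, the level was 1000.2 to 1024 CPM in WT and 1039 to 1086 CPM in the knockout.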
